A study of Macaca mulatta with 30 samples.

Results

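In a rhesus macaque expression table, 9 rows were examined, those of the liver enzymes that break down the aromatic amino acids tyrosine and tryptophan. The 4 genes of the tyrosine arm were TAT, HPD, HGD and FAH, and the 5 genes of the tryptophan arm were TDO2, AFMID, KMO, KYNU and AADAT. They were chosen by name as members of these pathways, and all 9 of the 9 were present among the 21292 gene rows of the table. Each is a protein-coding gene in NCBI's RefSeq table for the macaque, where all 9 symbols were found, with gene ID 708005 for TAT, 700940 for HPD, 713499 for HGD, 712716 for FAH, 699739 for TDO2, 715153 for AFMID, 707314 for KMO, 705179 for KYNU and 695264 for AADAT. The genome build behind the expression values is not given in the sources used here, so no coordinates are stated.

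RNA was sequenced from liver, pancreas and the 3 major salivary glands (parotid, submandibular and sublingual) of 6 rhesus macaques (Macaca mulatta), with 1 library for each tissue of each animal and 30 libraries in all. Animals 1 to 4 were labelled female and animals 5 and 6 male, no treatment was named, and all tissue was flash frozen; ages, strain and colony are not in the labels. Gland libraries carried the letter L in their labels, apart from the parotid of animal 3, which carried R. The series was made to follow amylase genes across salivary and digestive tissue within animals, and the same within-animal design gives each liver 4 companion tissues.

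Tyrosine is broken down in hepatocytes in a fixed order: TAT (tyrosine aminotransferase) removes the amino group, HPD (4-hydroxyphenylpyruvate dioxygenase) makes homogentisate, HGD (homogentisate dioxygenase) opens its ring, and FAH (fumarylacetoacetase) makes the final cut to fumarate and acetoacetate. Tryptophan is taken apart along the kynurenine pathway, which TDO2 (tryptophan dioxygenase) opens in the liver, AFMID (arylformamidase) carries to kynurenine, and KMO (kynurenine monooxygenase), KYNU (kynureninase) and AADAT (kynurenine aminotransferase 2) lead into separate branches. TAT and TDO2 are textbook examples of liver genes induced by glucocorticoids, and inherited loss of FAH, HGD, TAT or HPD causes the tyrosinemias and alkaptonuria.

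Values are TPM, an abundance scaled by the authors to transcript length and to a fixed library total, so levels of different genes can be set side by side. The number of reads behind them is unknown, and no counting interval can be given. Between 8477 and 13515 genes reached 1 TPM in a library. Several libraries stood apart from their tissue. In animal 4 the summed acinar markers of the pancreas library were 3642 TPM against 164602 to 348314 TPM in the other 5 pancreata, and the summed salivary acinar markers of its submandibular library were 2186 TPM against 225206 to 339328 TPM in the other 5. Its sublingual library also had a low salivary acinar sum, of 4981 TPM against 36735 to 345488 TPM. The parotid library of animal 6 held 82291 TPM of skeletal muscle markers, against 4.77 to 6345 TPM in the other parotids. Every liver was rich in its own markers, with 88041 to 134926 TPM of 12 secreted hepatocyte proteins, against 408 to 1226 TPM in the other 24 libraries. The livers also held 6040 to 9023 TPM of salivary acinar markers and 1260 to 4266 TPM of pancreas acinar markers. The low acinar sums of animal 4 were thus below those of the highest liver. The source of markers outside their own tissue was not tested. Libraries of bulk tissue cannot separate fewer cells of a type from less RNA per cell, and this holds for all values below.

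All 9 enzymes were highest in liver by median and rose in liver against each of the other 4 tissues. The called set, at an adjusted p below 0.05, was 9 of 9 members higher in liver in every one of the 4 comparisons, and each member was higher in 6 of 6 animals. The same call was made for 23.6% of all 13550 tested genes against pancreas, 53.4% against parotid, 45.1% against submandibular gland and 18.7% against sublingual gland. The median log2 fold change of the 9 members was 4.32 against pancreas, 5.16 against parotid, 4.98 against submandibular gland and 4.93 against sublingual gland. Over all tested genes the same medians were 0.36, 0.84, 0.70 and 0.10. Livers and the other tissue did not overlap for 8 members against pancreas and for 9 against each gland, where the livers lay above all libraries of the other tissue in 11.3%, 36.7%, 11.6% and 12.6% of tested genes. For 8 of the 9 members the lowest liver exceeded all 24 other libraries, which was so for 6.76% of the tested genes. These counts and medians include KMO and KYNU, which entered the test through their livers alone, as described below.

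The number of genes called higher in liver depended on how the libraries were scaled. After a trimmed-mean scaling, which sets libraries to each other after leaving out the genes with extreme ratios or levels, 20.9% of genes were called higher and 16% lower in liver against pancreas. The corresponding shares were 25.1% and 18.3% against parotid, 25.6% and 21% against submandibular gland, and 23.6% and 20.5% against sublingual gland, where the TPM as deposited gave 6.76%, 4.61%, 5.68% and 12.8% lower in the 4 comparisons. All 9 members remained called higher in liver in all 4 comparisons under this scaling too. Genes entered the test when they reached 1 TPM in at least 6 libraries. All 9 members did so, but KMO and KYNU passed through their livers alone, with 2 other libraries each at 1 TPM, and for those genes the difference from liver was built into the filter. TAT, HPD, FAH and AFMID were at or above 1 TPM in all 24 libraries from other tissues, TDO2 in 22, HGD in 20 and AADAT in 8.

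**Figure D1:**
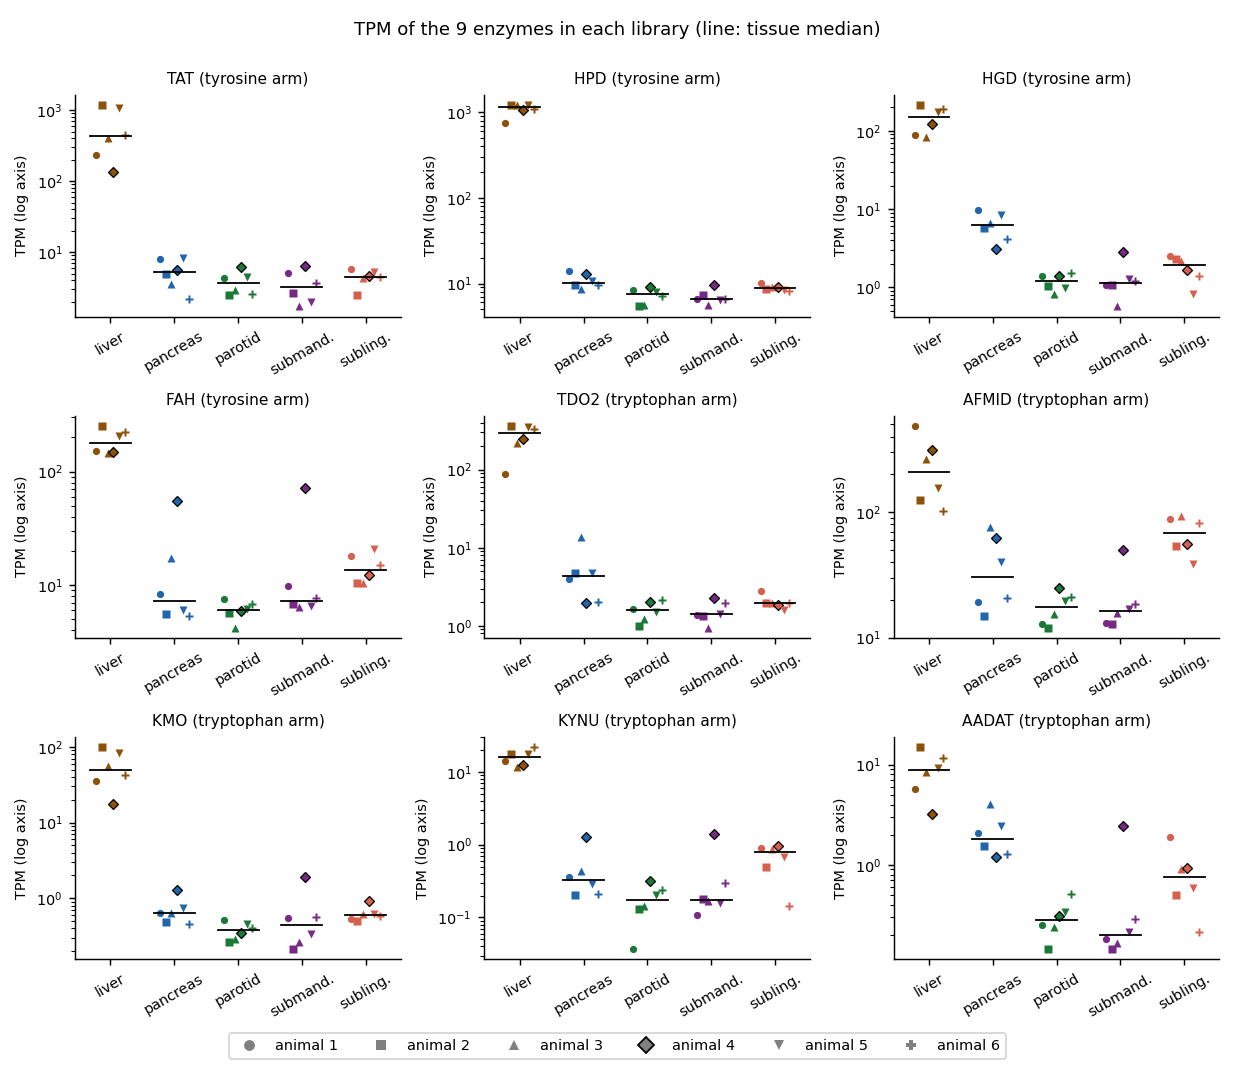
TPM of the 9 enzymes (log axis) in the 5 tissues, 1 panel per gene, 1 marker shape per animal, with animal 4 edged in black and a line at each tissue's median. The 6 livers sit above every other library in all panels but that of AADAT, where the liver of animal 4 (3.22 TPM) lies below the pancreas of animal 3 (4.03 TPM).

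TAT, which starts tyrosine breakdown, ranged in liver from 136 TPM in animal 4 through a median of 427 TPM to 1195 TPM in animal 2. In pancreas its lowest, median and highest values were 2.21, 5.24 and 8.27 TPM, and in the 3 salivary glands it stayed between 1.72 and 6.43 TPM. No library from another tissue came near the lowest liver. The log2 fold change of liver over the other tissues ran from 6.20 ± 0.41 (SE) against pancreas to 6.68 ± 0.41 against submandibular gland, with limma adjusted p of 1.56e-12 and 2.61e-13. The order of the 4 lower tissues by median was pancreas, sublingual gland (4.55 TPM), parotid (3.67 TPM) and submandibular gland (3.20 TPM), and neighbours in that order overlapped. As a share of liver these levels lay close to those of the hepatocyte markers, as given below, and their source was not tested.

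HPD was the most abundant of the 9 enzymes in liver and the steadiest. Its liver values were 757 TPM in animal 1, a median of 1166 TPM and a highest value of 1232 TPM. The livers of animals 2 to 6 lay between 1069.95 and 1232 TPM, and animal 1 lay alone below them. HPD was 8.67 to 14.1 TPM in pancreas (median 10.2), 5.39 to 9.19 TPM in parotid (median 7.55), 5.67 to 9.58 TPM in submandibular gland (median 6.59) and 8.13 to 10.1 TPM in sublingual gland (median 8.84). It had the largest fold changes of the set, from 6.53 ± 0.22 (SE) on the log2 scale against pancreas to 7.10 ± 0.22 against submandibular gland, with limma adjusted p of 1.11e-18 and 1.86e-19.

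HGD, the ring-opening enzyme whose loss causes alkaptonuria, was 83.9 TPM in its lowest liver (animal 3), 148 TPM at the median and 216 TPM in animal 2. Pancreas came next, with 3.06, 6.19 and 9.60 TPM as its lowest, median and highest values. The glands were lower again, at medians of 1.22 TPM in parotid, 1.14 TPM in submandibular gland and 1.91 TPM in sublingual gland. All 6 pancreata lay above all 18 gland libraries for this gene, whose highest value was 2.83 TPM in the submandibular gland of animal 4. The log2 fold change of liver was 4.32 ± 0.29 (SE) over pancreas and 5.65 ± 0.29 to 5.98 ± 0.29 over the glands, with limma adjusted p from 2.27e-12 to 1.56e-15.

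FAH, the last enzyme of the tyrosine arm, was 145 to 253 TPM in liver with a median of 179 TPM. Outside liver its medians were 7.19 TPM in pancreas, 6.00 TPM in parotid, 7.26 TPM in submandibular gland and 13.6 TPM in sublingual gland. A pair of libraries of animal 4 stood far above their tissue, the pancreas at 54.7 TPM (next 17.2 TPM, in animal 3) and the submandibular gland at 71.4 TPM (next 9.71 TPM). Even these lay below the lowest liver. The log2 fold change of liver was 3.96 ± 0.44 (SE) over pancreas, 4.73 ± 0.44 over parotid, 3.95 ± 0.44 over submandibular gland and 3.62 ± 0.44 over sublingual gland, with limma adjusted p from 1.52e-09 to 2.47e-07.

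TDO2, the first and committing enzyme of the kynurenine pathway in liver, was 87.6 TPM in the liver of animal 1, 292 TPM at the median and 366 TPM in animal 2. The other 5 livers held 219.8 TPM or more, so animal 1 again stood below the rest. In pancreas the values were 1.98, 4.36 and 13.8 TPM (lowest, median, highest), and the glands lay between 0.948 and 2.79 TPM. The log2 fold change of liver was 5.52 ± 0.35 (SE) over pancreas and 6.35 ± 0.35 to 6.60 ± 0.35 over the glands, with limma adjusted p from 3.90e-13 to 6.58e-15.

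AFMID, which hydrolyses formylkynurenine to kynurenine, was at 12.015 TPM or more in all 30 libraries. Its liver values were 103, 211 and 489 TPM (lowest, median, highest). Sublingual gland followed at 38.3, 68.4 and 93.4 TPM, so its highest library (animal 3) lay just under the lowest liver (animal 6). Pancreas held 14.8, 30.5 and 76.5 TPM, parotid 12.015, 17.4 and 24.9 TPM, and submandibular gland 12.8, 16.2 and 50.1 TPM. The log2 fold change of liver was 2.64 ± 0.37 (SE) over pancreas, 3.53 ± 0.37 over parotid, 3.41 ± 0.37 over submandibular gland and 1.66 ± 0.37 over sublingual gland, with limma adjusted p of 2.08e-06, 1.04e-08, 2.10e-08 and 0.000796. When the test asked for a change of more than 1 on the log2 scale, the sublingual comparison was no longer called (adjusted p = 0.279).

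KMO, the outer-membrane enzyme of mitochondria that hydroxylates kynurenine, was 17.7, 49.2 and 100.1 TPM in liver (lowest, median, highest). It was under 1 TPM in 22 of the 24 other libraries, with medians from 0.377 TPM in parotid to 0.644 TPM in pancreas. The highest value outside liver, 1.90 TPM, was in the submandibular library of animal 4. On the log2(TPM + 1) scale the liver change was 4.87 ± 0.30 (SE) over pancreas and 4.93 ± 0.30 to 5.16 ± 0.30 over the glands, with limma adjusted p from 2.70e-13 to 6.01e-14. That scale understates the change of genes at such low levels. KMO passed the filter through its livers alone, so its liver calls are not independent of the filter.

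KYNU, which splits kynurenine and hydroxykynurenine, held a narrow range in liver of 11.6, 15.9 and 22.0 TPM. Elsewhere its medians were 0.327 TPM in pancreas, 0.174 TPM in parotid, 0.173 TPM in submandibular gland and 0.785 TPM in sublingual gland. The pancreas and submandibular libraries of animal 4, at 1.25 and 1.39 TPM, were the only ones outside liver that reached 1 TPM. The liver change was 3.33 ± 0.20 (SE) to 3.82 ± 0.20 on the log2(TPM + 1) scale, with limma adjusted p from 2.33e-13 to 1.02e-14. As with KMO, the filter was passed through the livers alone, so these calls are not independent of it.

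AADAT, which turns kynurenine into kynurenic acid, was the lowest of the 9 enzymes in liver, at 3.22, 8.86 and 15.0 TPM. Pancreas held 1.21, 1.82 and 4.03 TPM, parotid 0.146, 0.280 and 0.509 TPM, submandibular gland 0.146, 0.198 and 2.43 TPM, and sublingual gland 0.215, 0.754 and 1.91 TPM. Liver and pancreas overlapped, because the liver of animal 4 was below the pancreas of animal 3, although in each animal the liver was the higher. The liver change was 1.61 ± 0.31 (SE) on the log2(TPM + 1) scale over pancreas (limma adjusted p = 0.000234) and 2.36 ± 0.31 to 2.81 ± 0.31 over the glands. Asking for a change of more than 1 left the pancreas comparison uncalled (adjusted p = 0.268).

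**Figure D2:**
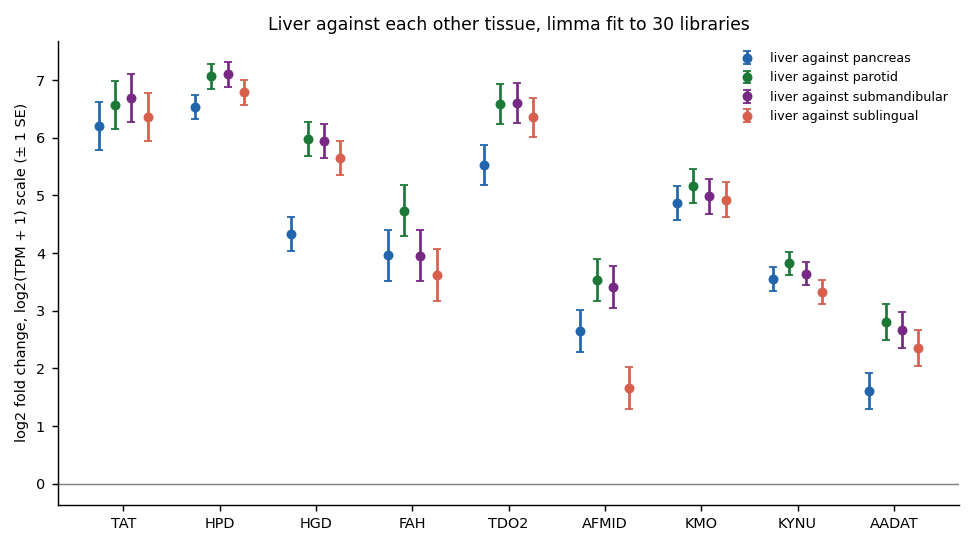
Log2 fold change of liver over each other tissue for the 9 enzymes, on log2(TPM + 1), from the limma fit; points are estimates and bars 1 SE. The values run from 1.61 for AADAT over pancreas to 7.10 for HPD over submandibular gland, and all lie above 0.

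The enzymes differed in how much of the liver level remained elsewhere, and the 12 hepatocyte markers gave a scale for it. Those markers code for secreted plasma proteins such as albumin and fibrinogen, and none was at 0 in the other tissues. Relative to the mean of the 6 livers, the 12 markers' medians were 0.711% to 1.06% in pancreas, 0.378% to 0.724% in parotid, 0.434% to 0.778% in submandibular gland and 0.643% to 0.909% in sublingual gland. The percentage of each enzyme was divided by the markers' median percentage in the same library, a ratio that library scaling does not alter. The share of all tested genes above the markers was not counted. The median tested gene was only 0.10 to 0.84 higher in liver on the log2 scale, so lying above the markers cannot be read as particular to these enzymes.

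TAT and HPD lay close to the markers on this scale. Over the 24 libraries the lowest, median and highest multiples were 0.446, 1.08 and 1.57 for TAT and 0.633, 1.16 and 1.78 for HPD. TAT exceeded all 12 markers in 7 of the 24 libraries and HPD in 6. TDO2 had a median multiple of 0.974 and exceeded all markers in 4 libraries, all of them pancreas, where the multiple reached 7.95 in animal 3. KMO had a median multiple of 1.21 and a highest value of 4.04, and it exceeded all 12 markers in 12 of the 24 libraries. The source of these low levels was not tested.

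FAH, AFMID and AADAT lay above all 12 markers in all 24 libraries, a count with no share of all tested genes beside it. Their median multiples were 6.97 for FAH, 14.2 for AFMID and 7.70 for AADAT, with lowest values of 2.64, 8.18 and 2.65. AFMID was furthest above the markers in sublingual gland, at 25.3, 36.0 and 46.9 times their median percentage (lowest, median, highest). AADAT was furthest above them in pancreas, at 15.3, 23.7 and 69.9 times. HGD exceeded all 12 markers in 18 of 24 libraries: 6 of 6 pancreata, 5 of 6 parotids, 3 of 6 submandibular and 4 of 6 sublingual glands. Its median multiples in these 4 tissues were 5.22, 1.33, 1.28 and 1.68. KYNU exceeded all 12 in 21 of 24 libraries, with a median multiple of 2.25 and 6.37 in sublingual gland.

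**Figure D3:**
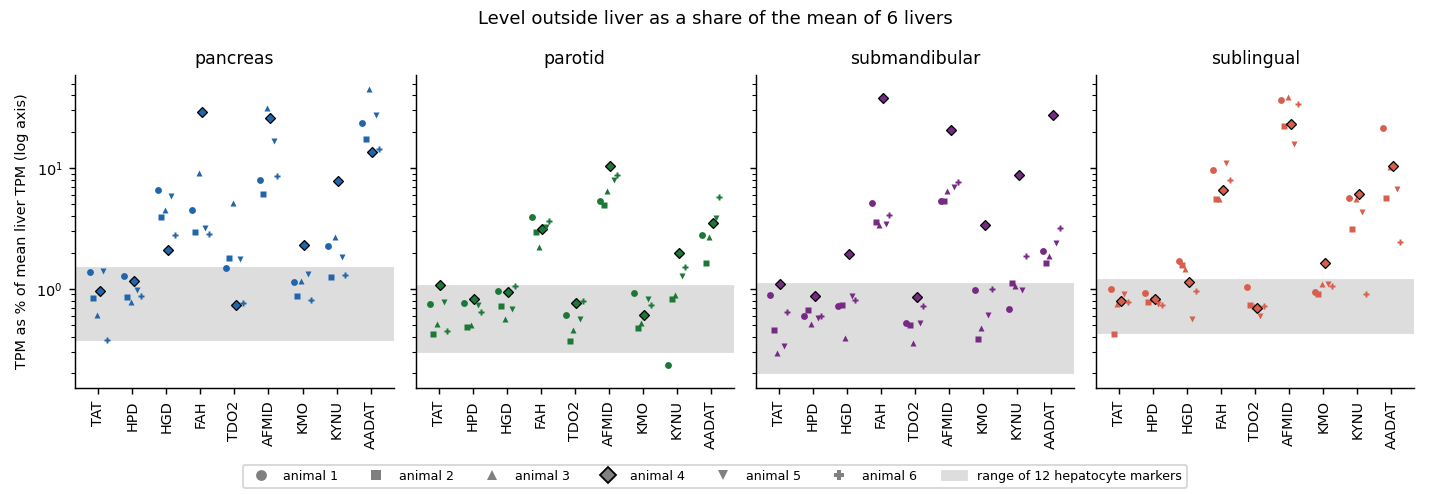
Level of each enzyme in each of the 24 libraries from other tissues as a percentage of its mean liver TPM (log axis); the grey band spans the 12 hepatocyte markers in the same tissue. TAT and HPD sit in or beside the band, whereas all points of FAH, AFMID and AADAT sit above the markers of their own library.

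Among the tissues other than liver, HGD was called lower in all 3 glands than in pancreas. On the TPM as deposited, AADAT and TDO2 were called lower in parotid and submandibular gland only, and those calls were less stable. HGD fell below pancreas in parotid, submandibular and sublingual gland alike, in 6 of 6 animals for each gland and with no overlap. Relative to pancreas the log2 fold changes were -1.66 in parotid (limma adjusted p = 0.000213), -1.62 in submandibular gland (adjusted p = 0.000376) and -1.33 in sublingual gland (adjusted p = 0.00197), each ± 0.29 (SE). The parotid and submandibular comparisons each had 3 of 9 members called lower, the sublingual comparison had 1, and 0 were called higher. The background of genes called lower was 13.6%, 7.46% and 3.51% for the 3 glands, that of genes called higher 2.24%, 2.25% and 10.4%, and genes with all 6 gland libraries below all 6 pancreata made up 10.3%, 1.93% and 1.37%. Trimmed-mean scaling gave 9.4%, 8.15% and 10.6% lower and 7.33%, 7.87% and 11% higher.

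AADAT was the second gene called lower than in pancreas. In parotid it was lower than in pancreas in 6 of 6 animals with no overlap (-1.20 ± 0.31 on the log2 scale, SE, with a limma adjusted p of 0.00962). The submandibular value was lower in 5 of 6 (-1.06 ± 0.31; adjusted p = 0.0293). The exception was animal 4, whose submandibular library held 2.43 TPM against 1.21 TPM in its pancreas. In sublingual gland the value was -0.75 ± 0.31, lower in 6 of 6 animals but not called (adjusted p = 0.124). Leaving out animal 3 ended both calls (adjusted p = 0.0944 for parotid and 0.274 for submandibular gland), as did leaving out animal 5 (0.051 and 0.165). The submandibular call was also lost without animal 1, 2 or 6 (0.11, 0.0951 and 0.0565).

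TDO2 passed the threshold less clearly. Relative to pancreas it was at -1.05 ± 0.35 (SE) in parotid, with a limma adjusted p of 0.0392 and a lower value in 4 of 6 animals, and at -1.07 ± 0.35 (adjusted p = 0.0479) in submandibular gland, lower in 5 of 6. It was -0.83 ± 0.35 (adjusted p = 0.121) in sublingual gland. Trimmed-mean scaling took the parotid and submandibular calls away (adjusted p = 0.22 and 0.149) and made one in sublingual gland (-1.02, adjusted p = 0.0297). Leaving out animal 3, whose pancreas held 13.8 TPM, gave -0.72 (adjusted p = 0.273) and -0.70 (adjusted p = 0.419), and both calls were also lost without animal 1, 2 or 5.

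The pancreas of animal 3 was unusual in its islet markers, which summed to 132626 TPM against 439 to 12700 TPM in the other 5 pancreata. TDO2, AFMID (76.5 TPM) and AADAT (4.03 TPM) all had their highest pancreas value in that library. HGD did not: its pancreas values by animal were 9.60, 5.78, 6.60, 3.06, 8.52 and 4.10 TPM, with the lowest in animal 4, the library with few acinar markers. The part of islet or acinar content in these levels was not tested. Without the pancreas and submandibular libraries of animal 4, HGD was at -1.81, -1.93 and -1.48 in the 3 glands (adjusted p = 1.43e-05, 8.79e-06 and 0.00015). Under trimmed-mean scaling it was at -1.28, -1.34 and -1.52.

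Without those libraries of animal 4, 5 members were called between sublingual gland and pancreas in place of 1. The background rose with them, to 5.31% of all tested genes lower and 28.3% higher in sublingual gland. TDO2 (-1.01, adjusted p = 0.0269) and AADAT (-0.77, adjusted p = 0.0326) joined HGD as lower in sublingual gland. FAH (0.82, adjusted p = 0.0224) and AFMID (1.11, adjusted p = 0.021) were then higher there. With all libraries, FAH was at 0.34 ± 0.44 (SE; adjusted p = 0.698) and AFMID at 0.98 ± 0.37 (adjusted p = 0.0778). In the submandibular comparison HPD was added as lower (-0.61, adjusted p = 0.0265), where 25.6% of all tested genes were lower and 3.74% higher.

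Between the glands, AFMID was called higher in sublingual gland than in the other 2 on the TPM as deposited, but not under the other scalings. It was lower in parotid than in sublingual gland by -1.87 ± 0.37 (SE) on the log2 scale (limma adjusted p = 0.000514), in 6 of 6 animals with no overlap. In submandibular gland it was lower by -1.75 ± 0.37 (adjusted p = 0.00149), again in 6 of 6, although the ranges overlapped through the submandibular library of animal 4. FAH was lower in parotid than in sublingual gland in 6 of 6 animals without overlap, at -1.11 ± 0.44 (adjusted p = 0.0468). These were 2 of 9 members called in the first comparison and 1 of 9 in the second, where 40.6% and 27.2% of all tested genes were called lower and 0.893% and 0.753% higher. The members were thus called lower no more often than genes at large. All parotid libraries lay below all sublingual ones in 15.2% of tested genes.

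Markers of other cells also differed between these glands. Lymphocyte and plasma cell markers summed to 186 to 9071 TPM in sublingual gland (median 1054), while parotid had a median of 28.6 TPM and submandibular gland one of 183 TPM. Macrophage markers had a median of 69.1 TPM in sublingual gland against 19.6 and 20.4 TPM. Skeletal muscle markers reached 7397 and 17669.5 TPM in the sublingual libraries of animals 1 and 5, where the median was 195 TPM. The part of these cell types in the AFMID and FAH levels was not tested.

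These gland differences moved with the scaling of the libraries, and the median of all tested genes was itself at -0.70 for parotid and -0.56 for submandibular gland against sublingual gland. After trimmed-mean scaling, which moved those medians to -0.03 and 0.00, AFMID was at -0.92 and -0.93 and missed the threshold (adjusted p = 0.0695 and 0.07), while 10.8% and 8.43% of genes were called lower and 6.7% and 6.42% higher. FAH was then at -0.23 (adjusted p = 0.638). Relative to all genes except the 100 most abundant, those medians moved to 0.30 and 0.34. AFMID was then at -0.44 and -0.43, and FAH in parotid turned to 0.23. HPD was called higher in parotid (1.06, limma adjusted p = 0.0152) and submandibular gland (0.93, adjusted p = 0.029) than in sublingual gland. FAH was also called higher in submandibular than in sublingual gland (0.92, adjusted p = 0.0237). The share of all genes called under this scaling is not given here. Without the submandibular and pancreas libraries of animal 4, 4 members (AFMID, FAH, KYNU and AADAT) were called lower in submandibular than in sublingual gland, as were 65.6% of all tested genes, with 1.03% higher. The parotid call of FAH was also lost without animal 1, 2, 3, 5 or 6 (adjusted p from 0.0577 to 0.147). The AFMID level as a multiple of the hepatocyte markers, which library scaling does not alter, was at least 25.3 in the sublingual libraries. The highest multiple was 15.1 in parotid and 24.6 in submandibular gland, so the gap was narrow. How many of all tested genes part these glands on this ratio was not counted, and the ratio also depends on the markers' own low levels.

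No member was called between parotid and submandibular gland. The limma test called 0 of 9, and 0 of 9 had an unadjusted p below 0.05. In this comparison 0.347% of all genes were called. The estimates ran from -0.78 ± 0.44 (SE) for FAH to 0.12 ± 0.41 for TAT on the log2 scale. FAH was lower in parotid than in submandibular gland in 6 of 6 animals, with overlapping ranges.

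Animal 4 gave the highest submandibular value of all 9 enzymes. There FAH was 71.4 TPM against 6.35 to 9.71 TPM in the other 5 animals, AFMID 50.1 against 12.8 to 18.6 TPM, and AADAT 2.43 against 0.146 to 0.286 TPM. KMO was 1.90 against 0.216 to 0.563 TPM, KYNU 1.39 against 0.108 to 0.298 TPM and HGD 2.83 against 0.570 to 1.27 TPM. Its pancreas library had the highest FAH, KMO and KYNU of the pancreata, but the lowest HGD, TDO2 and AADAT. These are TPM as deposited. The trimmed-mean scaling factor was 2.667 in that submandibular library, against 0.4683 to 0.6809 in the other 5. In that pancreas library it was 2.119, against 0.7191 to 1.529. A higher factor means that a typical gene reads higher in TPM. The share of all genes highest in these libraries was not counted.

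Markers of other cells moved with those libraries. The summed adipocyte markers were 6464 TPM in the pancreas of animal 4 (4.35 to 292 TPM in the others) and 3191 TPM in its submandibular gland (2.43 to 22.9 TPM). The summed macrophage markers were 401.5 TPM in that pancreas (13.1 to 90.6 TPM) and 1375 TPM in that submandibular gland (13.0 to 26.2 TPM), and haemoglobin transcripts reached 5989 and 5833 TPM. The summed hepatocyte markers were 1032 and 793 TPM in the same 2 libraries, inside the range of the other pancreas (754 to 1226 TPM) and submandibular (408 to 896 TPM) libraries. The part of these cell types in the enzyme levels was not tested.

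Within the liver the 9 enzymes varied to different degrees between animals. TAT had the widest spread, with the highest liver at 8.78 times the lowest, at percentile 97.3 of the 10311 genes present at 1 TPM in all livers. KMO (5.66-fold, percentile 93.2), AFMID (4.75-fold, 89.5), AADAT (4.67-fold, 89.1) and TDO2 (4.17-fold, 85.8) followed. HGD was near the middle at 2.57-fold, where the median gene had 2.31-fold. KYNU (1.89-fold, percentile 31.9), FAH (1.75-fold, 24.3) and HPD (1.63-fold, 17.6) were steadier than most genes.

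Most members had the same 3 animals highest in liver, though not in the same order. Animals 2, 5 and 6 held the 3 highest livers for HGD, FAH, TDO2, KYNU and AADAT, and also for TAT, in which animal 2 had 1195 TPM, animal 5 had 1074 TPM and animal 6 had 449 TPM. In HPD and KMO animal 3 took the place of animal 6 among the 3 highest. AFMID ran the other way, with 489, 312 and 266 TPM in animals 1, 4 and 3 against 155, 125 and 103 TPM in animals 5, 2 and 6. This grouping of animals was noticed in the values and was not tested, and the 9 genes of a library share its depth and its sample. The summed hepatocyte markers were lowest in the liver of animal 1 (88041 TPM), which also had the lowest HPD and TDO2, and highest in animal 2 (134926 TPM).

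The summed TPM of the tryptophan arm spanned a narrower range across livers than that of the tyrosine arm, although 4 of its 5 genes (TDO2, AFMID, KMO and AADAT) were among the more variable. The 5 genes summed to 515 to 632 TPM with a median of 605 TPM, whereas the 4 genes of the tyrosine arm summed to 1233 to 2890 TPM with a median of 1919 TPM. The ratio of TDO2 to AFMID ran from 0.179 to 3.27 and was above 1 in 3 of 6 livers. HPD exceeded HGD by 5.68 to 14.7 times, HGD stood at 0.578 to 0.859 of FAH, and TAT at 0.127 to 0.975 of HPD. KMO exceeded KYNU by 1.42 to 5.68 times and AADAT by 3.70 to 9.11 times in every liver.

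**Figure D4:**
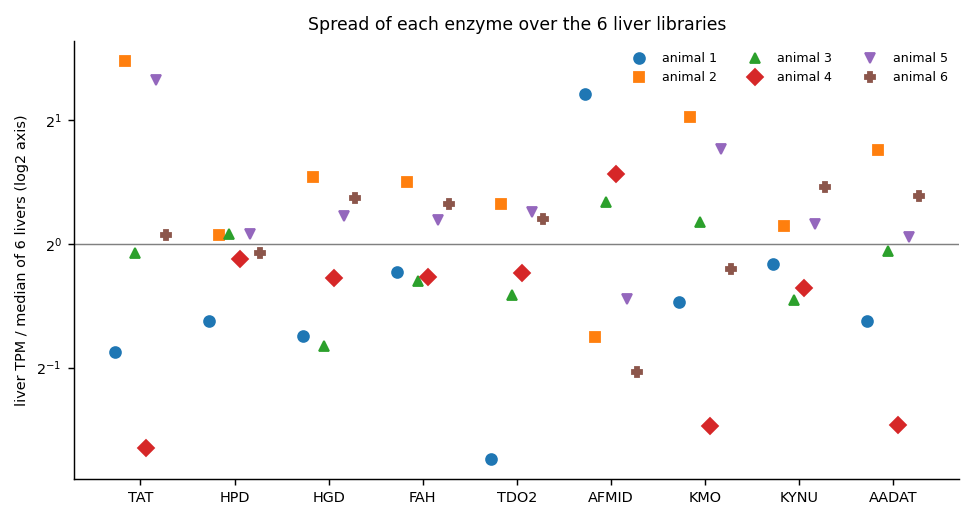
Liver TPM of each enzyme divided by its median over the 6 livers (log axis), 1 point per animal. TAT spans the widest range (8.78-fold) and HPD the narrowest (1.63-fold). AFMID is highest in animals 1, 4 and 3, unlike any of the other 8, whose own orders also vary.

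The other genes of the same pathways were read from a list of 42, of which 38 passed the filter. Against pancreas, parotid, submandibular and sublingual gland, 22, 32, 30 and 25 of the 38 were called higher in liver and 1, 1, 1 and 2 lower. Of all tested genes 23.6%, 53.4%, 45.1% and 18.7% were higher and 6.76%, 4.61%, 5.68% and 12.8% lower. The list's median log2 fold changes were 1.28, 2.36, 2.30 and 2.01, beside 0.36, 0.84, 0.70 and 0.10 for all tested genes. The genes higher in liver in all 4 comparisons numbered 21, with 19 after trimmed-mean scaling and 16 once each library was scaled without its 100 most abundant genes. Of all tested genes 15.5%, 15% and 10.5% met the same rule. That count was 15 without animal 2 and 11 when a change of more than 1 was asked for, where 11.8% and 6.21% of all tested genes met it. The list counts include ACMSD, HNF4A and FOXA2, which needed their livers to pass the filter, as described below. Against pancreas, 1, 1 and 6 of the 38 were called higher in parotid, submandibular and sublingual gland, and 9, 8 and 7 lower. The shares of all tested genes were 2.24%, 2.25% and 10.4% higher and 13.6%, 7.46% and 3.51% lower.

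Of the phenylalanine and tyrosine genes, 4 of 6 were higher in liver in all 4 comparisons (PCBD1, QDPR, GSTZ1 and GOT1). GSTZ1, the isomerase between HGD and FAH, had a liver median of 846 TPM against 13.2 to 40.0 TPM in the other tissues. All 4 genes of tetrahydrobiopterin synthesis, which supplies a cofactor of the aromatic amino acid hydroxylases, were higher in liver in all 4 comparisons (GCH1, GCHFR, PTS and SPR). SPR lost that standing under 2 scalings, where it turned to -0.11 and -0.06 against parotid and to -0.25 and -0.26 against submandibular gland (quantile normalisation and relative to all genes except the 100 most abundant).

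Of the tryptophan and kynurenine genes, 7 of 9 were higher in liver in all 4 comparisons (IDO2, KYAT1, HAAO, ACMSD, QPRT, ALDH8A1 and GCDH). HAAO, which follows KYNU on the way to quinolinate, had a liver median of 679 TPM, far above the 15.9 TPM of KYNU itself, and 4.05 to 9.04 TPM elsewhere. IDO2, a second enzyme able to open the tryptophan ring, had a liver median of 187 TPM, and TDO2 exceeded it in 5 of 6 livers. IDO1, the interferon-induced enzyme of that step, was 0.698 to 1.57 TPM in liver and was not called in any of the 4 comparisons. TDO2 exceeded IDO1 by 72.4 to 502 times in the livers. ACMSD, which diverts the pathway from NAD towards oxidation, was 12.5 to 57.9 TPM in liver and under 1 TPM in all other libraries. It passed the filter through its livers alone, so its liver calls are not independent of the filter.

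QPRT, which takes quinolinate towards NAD, was counted with the tryptophan genes above and was higher in liver in all 4 comparisons. Of the other listed genes on that route, 0 of the 3 tested (NMNAT1, NMNAT3 and NADSYN1) were higher in all 4. All 3 were called higher against parotid and submandibular gland, where 53.4% and 45.1% of all tested genes were. Against sublingual gland and pancreas 1 and 0 were called higher, beside 18.7% and 23.6% of all tested genes. Of 5 tested amine genes, DBH and MAOB were higher in liver throughout. TH, the tyrosine hydroxylase of catecholamine synthesis, went the other way. It was 2.52 to 3.70 TPM in liver and had a median of 2.49 TPM in pancreas, against medians of 80.4 TPM in parotid, 91.6 TPM in submandibular gland and 63.9 TPM in sublingual gland. The submandibular library of animal 4 was apart, at 1.83 TPM. The log2 fold changes of TH in liver against the 3 glands were -4.40, -3.75 and -3.47, and under trimmed-mean scaling -5.39, -4.71 and -3.498. DDC, which decarboxylates aromatic amino acids to amines, was not called between liver (median 19.5 TPM) and pancreas (23.3 TPM) and had medians of 0.367 to 0.442 TPM in the glands.

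None of the 6 tested carriers of aromatic amino acids was higher in liver in all 4 comparisons. SLC16A10, a carrier of the 3 aromatic amino acids, had medians of 6.08 TPM in liver and 9.22 TPM in pancreas and of 0.274 to 0.563 TPM in the glands. SLC7A8 was called lower in liver than in pancreas (log2 fold change -1.18) and sublingual gland (-1.05). Of the 5 regulators of liver amino acid genes, HNF4A, FOXA2, CEBPA and CEBPB were higher in liver in all 4 comparisons. HNF4A and FOXA2 stayed under 1 TPM in all gland libraries and in their lowest pancreas (0.828 and 0.566 TPM). Both therefore needed their livers to pass the filter, and their liver calls are not independent of it. NR3C1, the glucocorticoid receptor, was 1.36 to 3.70 TPM in liver and was called higher there against parotid alone, a value that turned to -0.12 relative to all genes except the 100 most abundant. FOXA2 had a median of 13.2 TPM in pancreas and of at most 0.435 TPM in the glands.

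**Figure D5:**
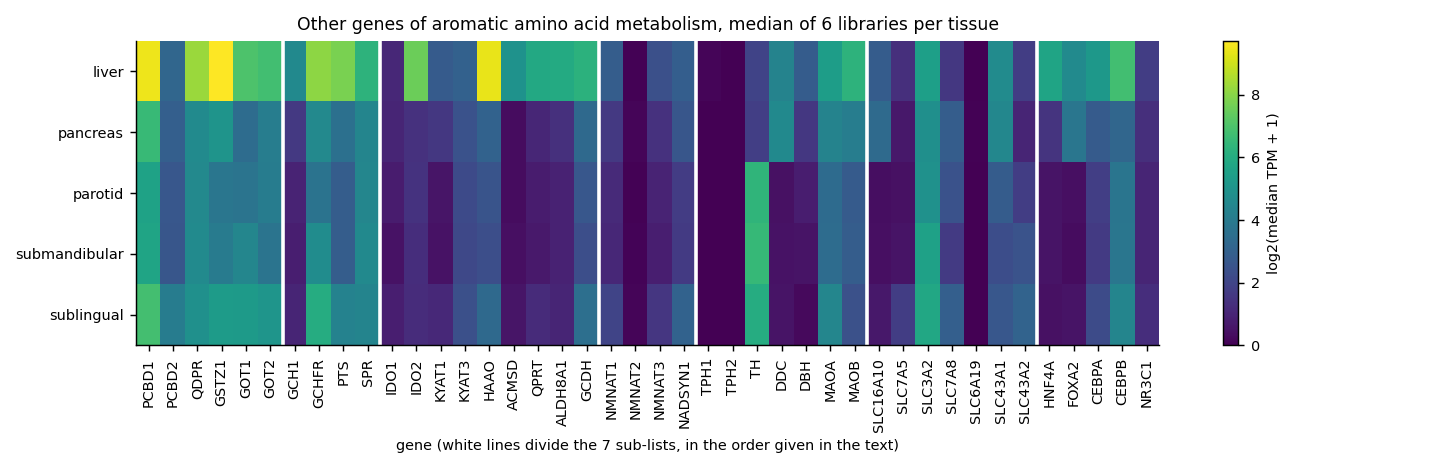
Heat map of log2(median TPM + 1) for the 42 other pathway genes in the 5 tissues, with white lines between the 7 groups in the order of the text: phenylalanine and tyrosine, tetrahydrobiopterin synthesis, tryptophan and kynurenine, NAD from quinolinate, amines, carriers, regulators. Liver has the highest median in the first 3 groups apart from PCBD2, while TH is highest in the 3 glands.

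For each member the genes with the most similar pattern were taken by Pearson correlation of log2(TPM + 1) among 6215 named genes. Over all 30 libraries this mostly measures liver against the rest. The genes nearest to 7 of the members were F2 for TAT (r = 0.991), CREB3L3 for HPD (0.997), TFR2 for HGD (0.989), CD14 for FAH (0.985), CYP3A4 for TDO2 (0.990), SLC25A18 for AFMID (0.972) and CES2 for KYNU (0.992). ACMSD, of the same pathway, was among the 3 nearest to KMO (0.990), and CLU among the 3 nearest to AADAT (0.953).

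Over the 24 libraries without liver the neighbours changed, and each r there rests on libraries that share animals and on low values. CYP2A24 was nearest to TAT (r = 0.897), DMGDH to HPD (0.885) and CYP2C8 to TDO2 (0.908), all 3 of them genes with liver medians above those of the other tissues. HGD was nearest to ITIH4 (0.957), ARHGDIG (0.952) and KIF26A (0.944). ARHGDIG was 29.7 TPM in pancreas against 0.884 TPM in liver, and KIF26A 12.9 against 0.376 TPM, by median. AFMID was nearest to PPP1R42 (0.981), GOSR2 (0.980) and MYB (0.978), with sublingual medians of 27.4, 701 and 67.4 TPM, each the highest of the 5 tissues for PPP1R42 and GOSR2 and second to liver for MYB. FAH was nearest to SELENBP1 (0.953), KMO to the monocyte gene CD14 (0.932), KYNU to UNC45A (0.963) and AADAT to PMM1 (0.937).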

How the data were processed

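The authors deposited a table of TPM from kallisto, per the file headers and labels, with 1 column for each of the 30 libraries and 1 row per gene name. Column sums ran from 999998 to 1000001. RNA came from frozen sections and paired reads were sequenced on an Illumina HiSeq, per the labels' protocols. The submitters' processing notes also name FastQC, MultiQC, cutadapt, HISAT2, SAMtools, featureCounts and DESeq2, with no role; versions, genome build and transcript annotation are not given in the sources used here. All 30 columns matched a label and 0 were unused.

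From the TPM, log2(TPM + 1) was fitted with limma 3.58.1 (R 4.3.3, with a variance trend), with tissue and animal as terms, over all 30 libraries and the 13550 genes that reached 1 TPM in 6 or more of them. P-values were adjusted over those genes by the Benjamini-Hochberg method within each of 10 tissue comparisons, with a threshold of 0.05. Residuals of libraries of the same animal correlated at 0.161 on average, against -0.0186 for libraries of different animals, and the labels name the shared animal. No pair of libraries was a duplicate (highest correlation 0.979). The low-level genes KMO, KYNU and AADAT are the ones whose fold changes the added 1 TPM compresses most.

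The 9 members, the marker lists and the pathway list were chosen with earlier results of these data known. The text names all members, the pathway genes called in 1 direction in all 4 liver comparisons or higher elsewhere, and the 3 most correlated genes per member whose tissue mean reached 10 TPM somewhere; a few others were named after their values were seen, and some genes are not reported here. Alternatives covered the block, the libraries fitted, scaling, pseudocount, filter, variance trend, a minimum change, and leaving out animals or libraries.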

Additional observations from a re-analysis of the deposited data

Results flagged for a closer look

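In each set of 6 libraries of a tissue, the highest or lowest library was compared with its nearest neighbour on log2(TPM + 1), and 11 of 45 sets had a library further out than Dixon's limit. Chance alone would give about 5% of sets, or 2.25 of 45. The sets are not independent, because the 9 genes were measured in the same libraries. The 11 flags therefore cannot be read as an excess over 2.25. Of the 11, 7 were in animal 4.

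In the submandibular gland of animal 4, FAH was 71.4 TPM (next 9.71), AFMID 50.1 TPM (next 18.6), AADAT 2.43 TPM (next 0.286), KMO 1.90 TPM (next 0.563) and KYNU 1.39 TPM (next 0.298). The same animal had the outlying highest KYNU in pancreas, at 1.25 TPM (next 0.431), and the outlying highest KMO in sublingual gland, at 0.913 TPM (next 0.616). Its submandibular and pancreas libraries had the highest trimmed-mean scaling factors of their tissues (2.667 and 2.119), so a typical gene also read higher there. How many of all genes would be flagged in these libraries was not counted.

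The other 4 were in animals 1 and 2. In the liver of animal 1, HPD was 757 TPM (next 1069.95) and TDO2 was 87.6 TPM (next 219.8), both the lowest of 6. In the sublingual gland, TDO2 was highest in animal 1 at 2.79 TPM (next 1.96), and TAT was lowest in animal 2 at 2.48 TPM (next 4.37).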

How the results depend on the processing

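The 36 liver fold changes of the 9 enzymes kept their direction in all 644 alternatives and their call in 642. The exceptions, AADAT over pancreas and AFMID over sublingual gland, came from asking for a change of more than 1. Over 66 fold changes of the members (those of liver and of glands against pancreas, and the called ones between glands), 1181 alternatives left 1087 on the same side, with 50 calls lost, 19 gained and 25 turned in direction. Leaving out the animal term (no replicate block) lost 1 member call, FAH in parotid against sublingual gland (adjusted p = 0.0615 in limma), so that this count went from 2 to 1, and changed no other member call. Depth is unknown, which limits what can be said of KMO, KYNU and AADAT below 1 TPM.

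Counts of called members moved as follows. Asking for a change of more than 1 left 0 in all comparisons without liver. Leaving out each animal in turn gave 1 to 3 for parotid against pancreas, 1 to 4 for submandibular gland against pancreas, 1 to 5 for sublingual gland against pancreas, 1 to 3 for parotid against sublingual gland and 1 to 3 for submandibular against sublingual gland. Sublingual gland against pancreas had 3 with trimmed-mean scaling, 3 with quantile normalisation, 4 relative to all genes except the top 100, and 5 without the pancreas and submandibular libraries of animal 4. Parotid against sublingual gland had 0 with trimmed-mean scaling, 0 with quantile normalisation, 1 (HPD, higher) relative to all genes except the top 100, and 1 without a filter. Submandibular against sublingual gland had 0, 0 and 2 (HPD and FAH, higher) under the same 3 scalings, and 4 without those libraries of animal 4. Without the top 100 the medians of all tested genes were -0.25, 0.30 and 0.34 in these 3 comparisons. The shares of all genes called there without the top 100 or with quantile normalisation are not given here.

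Of these 66, the fold changes that turned were not called in either fit, apart from FAH in parotid against sublingual gland, which was called and turned to 0.23 relative to all genes except the top 100. Outside the 66, HPD in parotid and submandibular gland and FAH in submandibular gland, against sublingual gland, turned from -0.28, -0.31 and -0.33 to called values of 1.06, 0.93 and 0.92 under that scaling. For parotid against pancreas, TAT turned to 0.18, 0.22 and 0.32 and HPD to 0.068, 0.066 and 0.18 under trimmed-mean scaling, quantile normalisation and without the top 100, and KMO to 0.027 and 0.013 under the last 2. For submandibular gland against pancreas, KMO turned to 0.027, 0.077 and 0.10 under those 3, KYNU to 0.026 and 0.034 under the last 2, and TAT to 0.0495 and HPD to 0.048 without the top 100. FAH in that comparison was -0.065 without the 2 libraries of animal 4, and ran from -0.081 to 0.27 as each animal was left out, below 0 without animal 1, 2, 4, 5 or 6. For sublingual gland against pancreas, FAH turned to -0.0082 with quantile normalisation and -0.28 without the top 100, and KMO to 0.11 without the 2 libraries of animal 4.

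For the other pathway genes the same alternatives were added after seeing the data. Of 2609 alternatives to 146 called fold changes, 243 lost the call and 12 turned, all from scaling. These were KYAT3 in liver against parotid (-0.13, -0.29 and -0.54 under the 3 scalings), NADSYN1 against parotid and submandibular gland (-0.20 and -0.12 without the top 100), NR3C1 against parotid (-0.12), SPR against parotid (-0.11 and -0.064) and submandibular gland (-0.25 and -0.26), and MAOA against submandibular gland (-0.014 and -0.13), each under the last 2 scalings where a pair is given.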
